A study of Saccharomyces cerevisiae with 134 samples.

Results

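RNA was measured 20 min after dark-grown budding yeast carrying a light-driven Set2 were moved into light, and was set against RNA of the same course at 0 min. The comparison uses 6 libraries, 3 at 20 min and 3 at 0 min, chosen by time point and assay from the 134 samples of the study. All 6 come from strain BY4741 with SET2 deleted (set2delta) and with LANS-Set2 expressed, grown at 30 °C in SC−LEU medium. The 20 min cells were in 500 µW/cm2 blue light and the 0 min cells were sampled in the dark just before the switch. Both groups lack the native SET2 gene, so the LANS construct is their source of Set2. The 40 min (3 libraries) and 60 min (2 libraries) points of the course and the opposite switch from light to dark are used here beside them. Nothing in the labels ties the replicates to separate cultures, and the p-values measure only how far these libraries spread, which may be technical. Time since the switch, light on the cells and Set2 in the nucleus change together in these samples and cannot be told apart.

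Set2 is the single yeast enzyme that places methyl groups on lysine 36 of histone H3 (H3K36), and it does so behind transcribing RNA polymerase II. Trimethylation (H3K36me3) recruits the Rpd3S deacetylase through Eaf3 and the Isw1b remodeller through Ioc4, which keep internal promoters in gene bodies shut, and Rph1 removes it. LANS is a light-activated nuclear shuttle: in the dark the fusion is held outside the nucleus, and blue light exposes a nuclear localisation signal. Ribosome biogenesis genes and stress genes are the opposite arms of the common yeast response to changing conditions, in which growth genes driven through the PAC promoter element go down and Msn2/Msn4 targets go up.

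The main result is that RNA levels were close to those of the dark cells. Of 5907 genes tested with limma on log2(TPM + 1), 1 was higher at 20 min and 0 were lower at a Benjamini-Hochberg adjusted p under 0.05, which is 0.0169% and 0% of the genes tested. At an unadjusted p under 0.05, 386 genes were higher and 146 lower, and after median-ratio scaling 261 were higher and 346 lower. TPM gives a gene's share of all transcripts, corrected for gene length, and a change in total RNA per cell does not show in it. The median log2 change of all genes was 0.04, and 90% of genes lay between -0.17 and 0.27. Only 34 genes had a log2 change larger than 1 in size, and 11 of them had a mean TPM of at least 10. A second test, DESeq2 on reads recovered from the TPM values, called 28 genes higher and 62 lower of 4623 genes with an adjusted p, which is 0.606% and 1.34%. edgeR on the same reads called 0 genes, with 600 of 5869 at an unadjusted p under 0.05 and a smallest adjusted p of 0.119. These fits had no replicate block. With the block, edgeR, DESeq2 and limma after median-ratio scaling called more genes, while limma without scaling did not. Those counts are in the closing section on processing. The sizes of the DESeq2 calls were small, with a median of 0.29 on the log2 scale and a range from -0.55 to 0.75.

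The DESeq2 counts rest on which libraries enter. Leaving out 0 min replicate 2 left 4 genes higher and 0 lower, and leaving out 0 min replicate 3 gave 78 higher and 202 lower. Without 0 min replicate 1 the counts were 9 and 12. Without 20 min replicates 1, 2 and 3 they were 11 and 17, 13 and 24, and 5 and 9. Of the 90 calls, CUR1 alone was called in all 6 of these fits. With all libraries kept and the replicate number as a block in DESeq2, 89 of the 90 were called again. With only the 6 libraries at 0 and 20 min, 13 of the 28 higher and 33 of the 62 lower were. 0 min replicate 3 was the dark library closest to the 20 min levels in 22 of the 28 genes called higher and in 42 of the 62 called lower. Below, "called" means called by DESeq2 on recovered reads unless limma is named, and these genes were chosen after their values were seen. All 28 genes called higher and 58 of the 62 called lower had no overlap between the 20 min and 0 min libraries. Separation of the groups in a called gene is therefore no further evidence of its change.

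**Figure D1:**
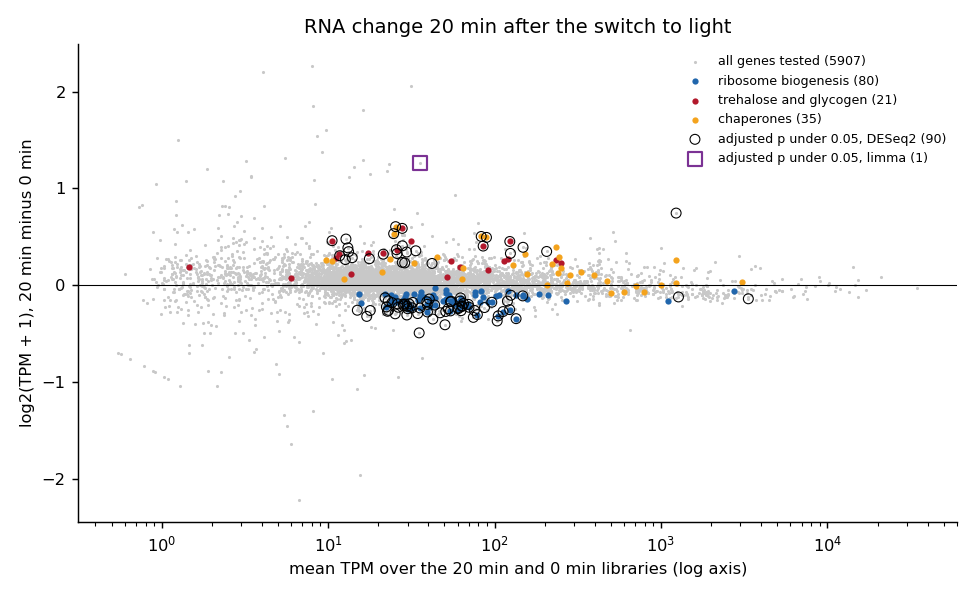
Change of each gene at 20 min relative to 0 min (log2(TPM + 1), vertical) against mean TPM over the 6 libraries (log axis). Ribosome biogenesis genes lie below 0 and most chaperone and trehalose and glycogen genes above it; circles mark the 90 DESeq2 calls and the square the 1 limma call.

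The gene that passed limma was YNL277W-A, a short open reading frame on chromosome XIV, 116679 to 116867 (sacCer3). It had 49.7, 48.9 and 52.4 TPM at 20 min, against 16.6, 21.5 and 23.8 TPM at 0 min. The groups did not overlap, and the log2 change was 1.26 ± 0.12 (SE) with an adjusted p of 0.00707 by limma. These TPM values stand for few reads, 21, 18 and 18 at 20 min and 5, 12 and 9 at 0 min, because its effective length is short. DESeq2 gave it no adjusted p, edgeR an adjusted p of 0.148, and leaving out any 20 min replicate took it over the threshold (adjusted p 0.0748, 0.0502 and 0.0753). It is therefore uncertain.

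SET2 showed no detectable difference. It had 126, 142 and 135 TPM at 20 min, against 113, 124 and 164 TPM at 0 min. The groups overlapped, with a log2 change of 0.03 ± 0.13 (SE) and an adjusted p of 0.988 by limma. Because the native gene is deleted, these reads come from the construct or what is left of the locus, and the TPM table does not separate them. The light switch acts on the location of the protein, so this level does not test the switch. The mark that Set2 places is described at the end.

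Genes for ribosome assembly formed the largest group of lower genes. Of 80 factors for ribosome assembly and RNA polymerases I and III, 28 were called lower and 0 higher, which is 35% of the list beside 1.34% of all genes. All 80 had a log2 change below 0 in limma, under TPM and after median-ratio scaling alike, beside 34.8% and 51.2% of all genes. The list's median was -0.16 (-0.20 after scaling), beside 0.04 (-0.003) for all genes, and its members ran from -0.35 to -0.03. None of the 80 passed limma. The number called lower in this list was 0 without 0 min replicate 2, 50 without 0 min replicate 3 and between 5 and 10 without any other library, while 76 to 80 members stayed below 0 by limma in all 6 fits. 36 of the 80 had every 20 min library below every 0 min library (49 after scaling), beside 3.74% of all genes (7.74% after scaling).

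The factors that came closest act at successive steps of ribosome making. DBP3, an RNA helicase of the large subunit pathway, had 50.8, 48.5 and 48.4 TPM at 20 min, against 60.0, 61.7 and 56.6 TPM at 0 min. The 20 min libraries all lay below the dark ones, with a DESeq2 log2 change of -0.32 ± 0.06 (SE), adjusted p = 0.00042 (limma adjusted p = 0.39). NOC2, which takes part in moving large subunit precursors out of the nucleolus, had 55.4, 55.8 and 54.7 TPM at 20 min, against 64.8, 68.1 and 63.0 TPM at 0 min. IMP4, part of the U3 particle that cuts the small subunit RNA, had 35.8, 36.6 and 34.7 TPM at 20 min, against 44.1, 44.4 and 41.8 TPM at 0 min. In both genes the groups stood apart, at DESeq2 log2 changes of -0.28 ± 0.06 and -0.33 ± 0.07 (SE, adjusted p 0.00145 and 0.00195). ENP1, a small subunit export factor, had 30.0, 28.5 and 29.3 TPM at 20 min, against 35.2, 35.2 and 33.4 TPM at 0 min, which is a log2 change of -0.29 ± 0.06 (SE, DESeq2 adjusted p 0.00195). NSR1, the yeast nucleolin, had 128, 116 and 112 TPM at 20 min, against 155, 154 and 143 TPM at 0 min. It had the largest negative change of the list by limma, -0.35 ± 0.10 (SE), and a DESeq2 adjusted p of 0.00202. DBP2, a helicase gene, and NOG2, a GTPase gene of the large subunit pathway, are members of the list too and were at DESeq2 log2 changes of -0.36 ± 0.10 and -0.36 ± 0.09 (SE, adjusted p 0.035 and 0.0168). The small nucleolar RNA gene SNR191 lies within NOG2 on the same strand, so NOG2's reads are uncertain.

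Some called genes outside this list also serve ribosome making. RRN11, a subunit of the core factor that starts RNA polymerase I on ribosomal DNA, had 15.1, 16.0 and 14.0 TPM at 20 min, against 19.9, 20.0 and 17.3 TPM at 0 min. RNT1, the RNase III that trims ribosomal RNA precursors, had 13.8, 13.2 and 13.6 TPM at 20 min, against 15.7, 17.0 and 16.5 TPM at 0 min. In both the groups did not overlap (DESeq2 log2 -0.39 ± 0.09 and -0.33 ± 0.07, SE, adjusted p 0.00476 and 0.00227). SYO1, which carries ribosomal proteins Rpl5 and Rpl11 into the nucleus, had a log2 change of -0.37 ± 0.10 (SE, DESeq2 adjusted p 0.0144). HMT1, an arginine methyltransferase of RNA-binding proteins, was called lower at -0.39 ± 0.11 (SE, adjusted p 0.0266) although its groups overlapped.

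Cytosolic ribosomal protein genes lay nearer to 0. Of 138, 126 were below 0 by limma (132 after scaling), with a median of -0.09 (-0.13 after scaling), beside 0.04 (-0.003) for all genes. Of the 136 with an adjusted p, 2 were called lower (1.47%), which is near the 1.34% of all genes. 32 of the 138 had no overlap between groups in the lower direction (61 after scaling), beside 3.74% (7.74% after scaling) of all genes, and 0 in the higher. RPL22A, a large subunit protein gene whose close paralog RPL22B makes its reads uncertain, had 1283, 1207 and 1173 TPM at 20 min, against 1348, 1335 and 1298 TPM at 0 min (DESeq2 log2 -0.17 ± 0.05, SE, adjusted p 0.045). Without 0 min replicate 3, 34 of the list were called lower, and without any other library 0 were.

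The largest falls among all called genes were not all of this kind. AQR1, a plasma membrane transporter, had 31.7, 31.3 and 24.6 TPM at 20 min, against 43.7, 42.8 and 37.3 TPM at 0 min, a log2 change of -0.55 ± 0.14 (SE, DESeq2 adjusted p 0.0159). YGR079W, a gene with no name, INA1 and IZH1, a membrane protein gene tied to zinc homeostasis, were at -0.46 ± 0.12, -0.41 ± 0.09 and -0.40 ± 0.11 (SE, adjusted p 0.0159, 0.0023 and 0.0197). In each of these 4 genes every 20 min library lay below every dark library.

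**Figure D2:**
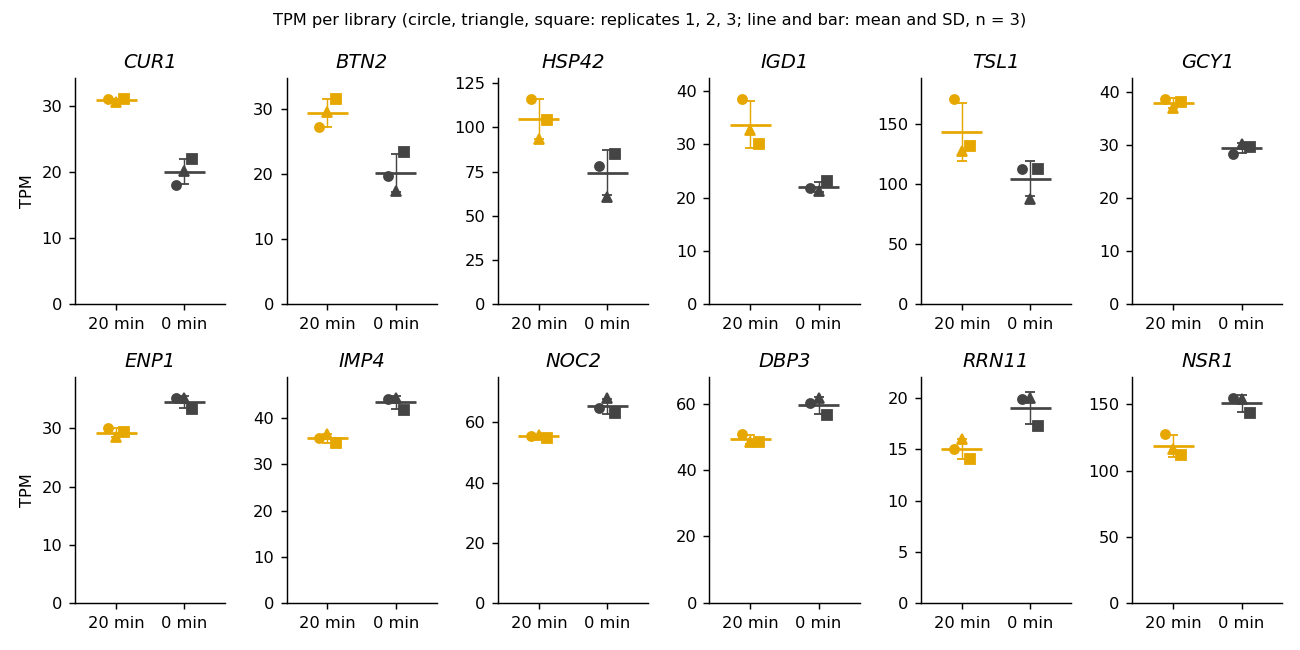
TPM of 12 genes in each library at 20 min (yellow, left) and 0 min (grey, right), with mean and SD of 3 libraries. The upper 6 genes, of stress, chaperone and storage sugar lists, are higher in every 20 min library than in any 0 min library, and the lower 6, of ribosome making, are lower. All 12 were picked from the DESeq2 calls, nearly all of which have no overlap between groups.

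Among the 34 lists, genes of storage sugars and of protein quality control had the highest shares called higher, although the median change of the chaperones (0.14) was below those of the general stress (0.25) and respiration (0.15) genes. Of 35 heat shock and chaperone genes, 4 were called higher (BTN2, CUR1, HSP42 and HSP78) and 0 lower, which is 11.4% of the 35 with an adjusted p, beside 0.606% of all genes. 31 of the 35 were above 0 by limma (26 after scaling), beside 65.2% (48.8%) of all genes, and 10 had no overlap between groups in the higher direction, beside 10.6% of all genes. The median was 0.14 (0.10 after scaling). By library, the list's median relative to the 0 min mean was 0.21, 0.01 and 0.19 at 20 min, against 0.04, -0.13 and 0.09 at 0 min, so the groups overlapped. Leaving out 1 library left between 1 and 6 of the list called higher, and without 20 min replicate 1 or 0 min replicate 2 the median was 0.09.

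CUR1 and BTN2 are paralogs whose proteins sort misfolded proteins into deposits in the cell. CUR1 had 31.03, 30.6 and 30.96 TPM at 20 min, against 18.0, 20.1 and 21.9 TPM at 0 min. The 20 min libraries agreed closely and all lay above the dark ones, with a log2 change of 0.58 ± 0.10 (SE), DESeq2 adjusted p = 3.25e-05 (limma 0.61 ± 0.10, adjusted p 0.184). BTN2 had 27.2, 29.5 and 31.5 TPM at 20 min, against 19.6, 17.4 and 23.3 TPM at 0 min, a log2 change of 0.51 ± 0.12 (SE, DESeq2 adjusted p 0.0042). HSP42, a small heat shock protein that gathers misfolded proteins in the cytosol, had 116, 93.5 and 104 TPM at 20 min, against 77.9, 60.3 and 84.9 TPM at 0 min (0.45 ± 0.11, SE, DESeq2 adjusted p 0.0126). HSP78, the disaggregase of the mitochondrial matrix, had 90.6, 103 and 98.6 TPM at 20 min, against 58.7, 65.3 and 82.9 TPM at 0 min (0.46 ± 0.12, SE, adjusted p 0.018). In each of the 4 genes the groups did not overlap, and 0 min replicate 3 was the highest dark library.

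Among 21 genes for making and breaking down trehalose and glycogen, 4 of the 20 with an adjusted p were called higher and 0 lower. That is 20%, beside 0.606% of all genes called higher. All 21 were above 0 under both scalings, beside 65.2% (48.8% after scaling) of all genes, with a median of 0.28 (0.23 after scaling). IGD1, an inhibitor of the glycogen debranching enzyme, had 38.6, 32.7 and 30.0 TPM at 20 min, against 21.8, 21.2 and 23.1 TPM at 0 min (0.57 ± 0.11, SE, DESeq2 adjusted p 0.000922). TSL1, a regulatory subunit of the trehalose synthase complex, had 171, 127 and 131 TPM at 20 min, against 112, 87.3 and 113 TPM at 0 min (0.41 ± 0.12, SE, adjusted p 0.0308). GSY2, the main glycogen synthase, and GLG1, a glycogenin that primes it, were at 0.36 ± 0.08 and 0.45 ± 0.12 (SE, adjusted p 0.00476 and 0.0137). In all 4 the groups stood apart, but the list as a whole did not separate every library. Its median relative to the 0 min mean was 0.42, 0.11 and 0.22 in the 20 min libraries, against -0.01, -0.18 and 0.14 in the 0 min libraries, so that replicate 2 was lowest at both times. The list's median change was 0.15 without 20 min replicate 1 and 0.15 without 0 min replicate 2, with 2 and 0 of its genes called.

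The general stress list, of genes induced through Msn2 and Msn4, shares HSP12, HSP26 and HSP42 with the chaperone list and NTH1 with the trehalose and glycogen list, so these lists are not independent. 45 of its 46 genes were above 0 under both scalings, beside 65.2% (48.8% after scaling) of all genes, with a median of 0.25 (0.21 after scaling). The list did not separate every library. Its median relative to the 0 min mean was 0.44, 0.05 and 0.25 in the 20 min libraries, against 0.07, -0.17 and 0.08 in the 0 min libraries. DDR2, GCY1 and HSP42 were called higher, 3 of the 39 with an adjusted p (7.69%), beside 0.606% of all genes. DDR2, a small protein gene induced by many stresses, had 1093, 1716 and 1872 TPM at 20 min, against 891, 930 and 897 TPM at 0 min. Its change, 0.75 ± 0.23 (SE), was the largest of the calls and sat at the threshold (DESeq2 adjusted p 0.0499), and replicate 1 at 20 min was much nearer the dark libraries than replicates 2 and 3 were. Leaving out 1 library left between 0 and 6 of the list called, and without 20 min replicate 1 or 0 min replicate 2 its median was 0.14. GCY1, a reductase of glycerol metabolism, had 38.7, 36.9 and 38.1 TPM at 20 min, against 28.3, 30.2 and 29.7 TPM at 0 min (0.32 ± 0.07, SE, DESeq2 adjusted p 0.00195). It was the smallest limma p after YNL277W-A, with CUR1 (adjusted p 0.184 for both).

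Respiration genes were above 0 in 46 of 46 cases (43 after scaling), beside 65.2% (48.8%) of all genes, with a median of 0.15 (0.11 after scaling). Of these, 0 were called in either direction by limma or DESeq2. At an unadjusted limma p under 0.05, 13 were higher, beside 386 of all 5907 genes. 23 of the 46 had no overlap between groups in the higher direction (12 after scaling), beside 10.6% (7.03% after scaling) of all genes. 31 genes for iron uptake and its control had a median of 0.15 (0.11 after scaling). Of these, 28 were above 0 (26 after scaling), beside 65.2% (48.8%) of all genes. HMX1 alone was called higher, which is 3.57% of the 28 with an adjusted p, beside 0.606% of all genes. HMX1, the heme oxygenase, had 17.3, 13.5 and 14.4 TPM at 20 min, against 10.1, 10.6 and 10.9 TPM at 0 min (0.48 ± 0.12, SE, DESeq2 adjusted p 0.0101). 48 oxidative stress genes had a median of 0.12 (0.08 after scaling), and 43 were above 0 (38 after scaling), beside 65.2% (48.8%) of all genes. Of these, 0 were called by limma, and 0 by DESeq2 among the 40 with an adjusted p. At an unadjusted limma p under 0.05, 8 were higher, beside 386 of all 5907 genes. 10 had no overlap between groups in the higher direction (7 after scaling), beside 10.6% (7.03% after scaling) of all genes. In a list of genes tied to oxygen and heme, 2 of the 23 with an adjusted p were called higher, HMX1 and YHB1 (8.70%, beside 0.606% of all genes). Of its 29 genes tested, 20 were above 0 (16 after scaling), with a median of 0.06 (0.02 after scaling). YHB1, the flavohemoglobin that detoxifies nitric oxide, had 232, 231 and 228 TPM at 20 min, against 171, 193 and 178 TPM at 0 min (0.30 ± 0.08, SE, DESeq2 adjusted p 0.0144). After the opposite switch, YHB1 averaged 151 ± 17.7 TPM at 30 min of dark and 83.9 ± 9.57 TPM at 0 min (SD, n = 3 each), which did not pass limma (adjusted p 0.141). It averaged 232 ± 26.4 TPM at 90 min of dark (SD, n = 3), a log2 change of 1.45 ± 0.12 from that course's 0 min that passed limma (SE, adjusted p 0.000144). PYK2, the minor pyruvate kinase, and TPO4, a polyamine exporter, were called higher at 0.31 ± 0.08 and 0.33 ± 0.10 (SE, adjusted p 0.0101 and 0.035).

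In the RAS and protein kinase A pathway, which couples glucose to growth, 2 of 16 genes with an adjusted p were called, in opposite directions. That is 1 in each direction (6.25%), beside 0.606% of all genes called higher and 1.34% called lower. RAS1, a GTPase that switches on adenylate cyclase, had 27.3, 28.9 and 26.3 TPM at 20 min, against 30.6, 32.7 and 33.2 TPM at 0 min (-0.27 ± 0.08, SE, DESeq2 adjusted p 0.0292). CYR1, adenylate cyclase itself, had 31.9, 31.8 and 30.0 TPM at 20 min, against 25.7, 25.6 and 28.2 TPM at 0 min (0.19 ± 0.05, SE, adjusted p 0.0182). ROM1, an activator of the cell wall GTPase Rho1, had 15.7, 15.5 and 15.1 TPM at 20 min, against 12.01, 12.2 and 13.3 TPM at 0 min (0.26 ± 0.06, SE, adjusted p 0.00195). GID11, a substrate receptor of the GID ubiquitin ligase, was at 0.37 ± 0.11 (SE, adjusted p 0.0356). YGL108C, a gene with no name, had 26.4, 27.1 and 26.4 TPM at 20 min, against 21.1, 18.8 and 21.7 TPM at 0 min, with a limma adjusted p of 0.363 and none from DESeq2.

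**Figure D3:**
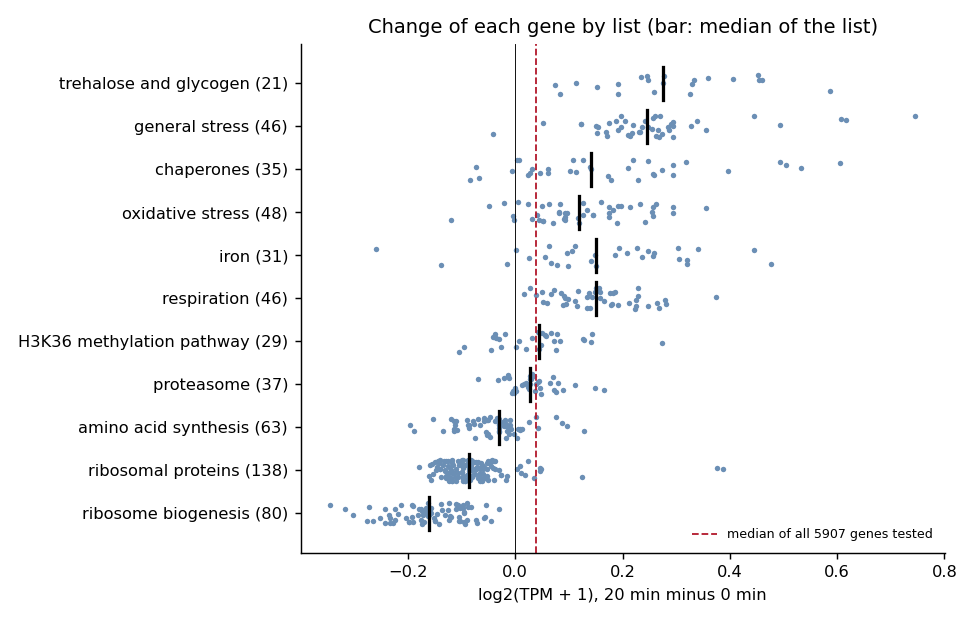
Change at 20 min relative to 0 min (log2(TPM + 1)) of each gene in 11 lists, with the list's median as a bar and the median of all 5907 genes (0.04) dashed. All ribosome biogenesis genes lie left of 0 and all trehalose and glycogen genes right of it.

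The machinery around H3K36 methylation was near its dark level. Of 29 genes for Set2, demethylases, readers and elongation factors tied to Set2, 1 was called by DESeq2, as higher, and 0 by limma. That 1 is 3.57% of the 28 with an adjusted p, beside 0.606% of all genes called higher. In the list, 2 were higher at an unadjusted limma p under 0.05, beside 386 of all 5907 genes, and the median was 0.04 (0.00 after scaling). The called gene was GIS1, the paralog of the demethylase gene RPH1. GIS1 had 20.3, 18.7 and 19.4 TPM at 20 min, against 16.0, 15.2 and 16.6 TPM at 0 min, with no overlap (0.25 ± 0.07, SE, DESeq2 adjusted p 0.0292; limma adjusted p 0.39). RPH1 had 23.7, 18.6 and 17.9 TPM at 20 min, against 21.8, 20.4 and 19.7 TPM at 0 min, with overlap and a limma adjusted p of 0.96. JHD1, a demethylase of lower methylation states of H3K36, averaged 10.2 ± 0.51 TPM at 20 min and 9.26 ± 0.24 TPM at 0 min (SD, n = 3 each, limma adjusted p 0.561). EAF3, the reader in Rpd3S, averaged 48.5 ± 2.87 TPM at 20 min and 46.0 ± 3.30 TPM at 0 min (SD, n = 3 each, limma adjusted p 0.873).

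Genes known for internal promoters that open when Set2 is lost showed no change in total RNA that passed limma or DESeq2. FLO8, a regulator of filamentous growth and the common reporter of such promoters, had 16.3, 15.8 and 15.4 TPM at 20 min, against 16.2, 16.0 and 16.1 TPM at 0 min (log2 -0.03 ± 0.05, SE, limma adjusted p 0.96). STE11, a kinase of the pheromone pathway, had 21.8, 19.8 and 19.0 TPM at 20 min, against 18.7, 19.8 and 22.01 TPM at 0 min (0.00 ± 0.08, SE, limma adjusted p 0.997). In both the groups overlapped before scaling. SPB4 (a helicase for the large ribosomal subunit), AVO1 (part of TORC2) and PCA1 (a cadmium exporter) were at -0.09 ± 0.05, 0.04 ± 0.06 and 0.11 ± 0.10 (SE, limma adjusted p 0.658, 0.913 and 0.819). After median-ratio scaling, 2 of the 5 genes had every 20 min library below every 0 min library, beside 7.74% of all genes, and 0 had the reverse. SPB4 was then at -0.14 ± 0.04 (SE, limma adjusted p 0.245). The tables hold 1 value per gene, so transcripts that start inside a gene are not resolved from full-length ones. 6 genes described as repressed by Rph1 had a median of 0.17 (0.13 after scaling), beside 0.04 (-0.003) for all genes. All 6 were above 0 under both scalings, beside 65.2% (48.8% after scaling) of all genes. Of them 0 were called by limma and 0 were at an unadjusted limma p under 0.05. DESeq2 gave an adjusted p to only 3 of the 6 and called 0, beside 0.606% of all genes called higher.

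The promoters of the called genes are shown for the 3 largest positive and 3 largest negative changes among the genes with the smallest limma p, and for TSL1 and HSP42, added after values were seen because both hold repeated AGGGG. Each is 250 bases, from 300 to 51 bases before the start codon on the gene's strand, read from the R64 genome of RefSeq, which is the sacCer3 build. Capitals mark matches, on either strand, to any of 7 motifs: AGGGG (stress element of Msn2 and Msn4), GATGAG (PAC), TGACTCA (Gcn4), CACGTG (Cbf1 and Pho4), TTAGTAA (Yap1), TGCACCC (Aft1) and TCGTATA (Upc2). No motif contains another.
YNL277W-A, chrXIV:116379-116628, plus strand: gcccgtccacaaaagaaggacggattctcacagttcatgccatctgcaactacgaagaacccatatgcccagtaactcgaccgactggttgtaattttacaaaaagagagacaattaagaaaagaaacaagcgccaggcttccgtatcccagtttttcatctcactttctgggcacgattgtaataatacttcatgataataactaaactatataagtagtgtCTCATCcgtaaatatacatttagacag
CUR1, chrXVI:842962-843211, plus strand: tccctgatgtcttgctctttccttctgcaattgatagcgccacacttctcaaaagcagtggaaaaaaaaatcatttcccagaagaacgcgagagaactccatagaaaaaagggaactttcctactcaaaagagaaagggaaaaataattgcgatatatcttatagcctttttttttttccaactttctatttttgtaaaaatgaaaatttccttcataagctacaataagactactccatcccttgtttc
BTN2, chrVII:772154-772403, plus strand: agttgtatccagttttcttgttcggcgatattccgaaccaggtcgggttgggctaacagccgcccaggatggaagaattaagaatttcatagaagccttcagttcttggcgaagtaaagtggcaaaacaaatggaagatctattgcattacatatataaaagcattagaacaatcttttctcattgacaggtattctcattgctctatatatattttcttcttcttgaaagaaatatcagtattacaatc
TSL1, chrXIII:70324-70573, plus strand: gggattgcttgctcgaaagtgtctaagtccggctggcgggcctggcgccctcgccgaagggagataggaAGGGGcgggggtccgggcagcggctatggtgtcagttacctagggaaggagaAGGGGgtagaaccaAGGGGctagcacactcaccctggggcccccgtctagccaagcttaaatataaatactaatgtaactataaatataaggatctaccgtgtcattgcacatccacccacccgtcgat
HSP42, chrIV:806321-806570, plus strand: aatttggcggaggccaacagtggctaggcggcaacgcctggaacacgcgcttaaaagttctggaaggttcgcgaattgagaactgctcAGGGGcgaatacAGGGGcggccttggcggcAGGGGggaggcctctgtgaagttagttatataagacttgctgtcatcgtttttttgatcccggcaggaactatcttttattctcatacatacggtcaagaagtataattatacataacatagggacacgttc
RRN11, chrXIII:191818-192067, minus strand: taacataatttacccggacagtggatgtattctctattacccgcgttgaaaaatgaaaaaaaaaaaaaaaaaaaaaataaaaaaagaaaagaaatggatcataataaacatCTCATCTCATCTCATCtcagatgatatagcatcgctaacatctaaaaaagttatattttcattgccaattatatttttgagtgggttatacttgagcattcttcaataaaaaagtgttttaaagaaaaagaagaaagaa
IMP4, chrXIV:485307-485556, plus strand: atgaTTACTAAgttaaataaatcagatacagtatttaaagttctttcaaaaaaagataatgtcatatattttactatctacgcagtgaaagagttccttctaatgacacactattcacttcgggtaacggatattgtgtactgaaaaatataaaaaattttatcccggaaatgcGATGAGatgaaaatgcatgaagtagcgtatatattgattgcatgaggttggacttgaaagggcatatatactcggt
DBP3, chrVII:361910-362159, minus strand: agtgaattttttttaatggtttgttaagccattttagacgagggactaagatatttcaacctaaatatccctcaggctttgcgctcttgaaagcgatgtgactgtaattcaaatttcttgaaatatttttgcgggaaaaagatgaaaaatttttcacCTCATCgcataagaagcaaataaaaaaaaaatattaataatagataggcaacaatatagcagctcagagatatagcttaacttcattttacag

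Among the 62 genes called lower, 49 promoters (79.0%) held GATGAG or its reverse complement CTCATC, beside 1064 of 5985 promoters of protein-coding genes (17.8%). The RRN11 window shows the element in 3 overlapping copies. Of the 28 called ribosome biogenesis genes, 27 held it, but so did 46 of the 52 in that list that were not called, and 22 of the 34 genes called lower outside the list. Among the 28 genes called higher, 19 promoters (67.9%) held AGGGG, beside 1148 of 5985 (19.2%) of all promoters and 5 of the 62 genes called lower (8.06%). TSL1, HSP42, HSP78 and DDR2 each held 3 copies, while CUR1, BTN2, GLG1, YHB1, TPO4 and GIS1 had no match to any of the 7 motifs in this window. CACGTG stood in 3 of the 28 promoters of genes called higher (10.7%), beside 3.26% of all. TGACTCA stood in 1 of the 28 and in 0 of the 62, beside 2.39% of all. A match describes the sequence and does not show that a factor was bound.

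The same groups were followed to 40 and 60 min. The median of the ribosome biogenesis list relative to the 0 min mean was 0.01, 0.03 and -0.05 in the 0 min libraries, -0.12, -0.15 and -0.19 at 20 min, -0.22, -0.15 and -0.19 at 40 min, and -0.12 and -0.01 at 60 min. The 3 libraries at 20 min lay below all 3 at 0 min. For DBP3 the mean was 49.8 ± 1.73 TPM at 40 min (SD, n = 3) and 54.5 TPM at 60 min. GCY1 went higher, to 57.3 ± 3.31 TPM at 40 min, against 37.9 ± 0.92 TPM at 20 min (SD, n = 3 each). Its log2 change of 0.58 ± 0.06 (SE, limma adjusted p 0.00734) was the 1 call of 40 min against 20 min in limma (0.0169% of genes tested), and 0 genes were lower (0%), with 315 of 5907 at an unadjusted p under 0.05. At 60 min against 20 min, 0 genes passed limma, with 567 at an unadjusted p under 0.05 and a smallest adjusted p of 0.0751. DESeq2 on recovered reads called 6 genes higher and 15 lower of 1344 at 40 min against 20 min (0.446% and 1.12%). At 60 min against 20 min it called 3 higher and 143 lower of 713 (0.421% and 20.1%), with 2 libraries at 60 min, 1 of which stood apart. These DESeq2 totals count only genes given an adjusted p, which were 4623 at 20 min against 0 min. The shares are therefore of different gene sets and cannot be compared between contrasts. Against 0 min, which the 20 min comparison shares, limma called 209 genes higher and 15 lower at 40 min (3.54% and 0.254%), and DESeq2 269 higher and 418 lower of 5884 (4.57% and 7.1%).

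**Figure D4:**
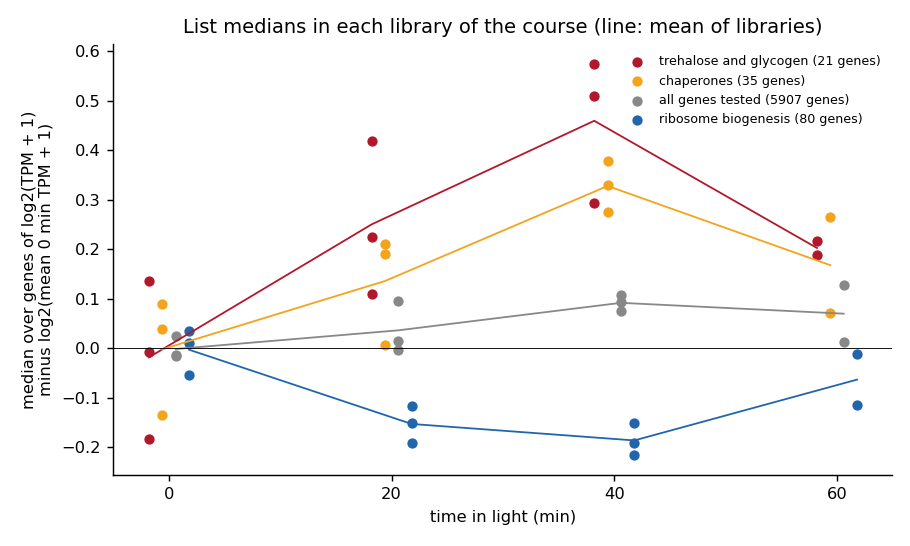
Median over the genes of 3 lists and over all genes tested of log2(TPM + 1) minus its 0 min value, by time in light, 1 point per library. Trehalose and glycogen genes reach a highest library of 0.57 at 40 min, and ribosome biogenesis genes lie below 0 in all 8 libraries after the switch.

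CUR1 had a mean of 30.9 ± 0.22 TPM at 20 min, 30.8 ± 2.10 TPM at 40 min (SD, n = 3 each) and 29.0 TPM at 60 min. HSP42 averaged 128 ± 7.55 TPM at 40 min, and TSL1 173 ± 14.8 TPM, both above their 20 min means of 105 ± 11.4 and 143 ± 23.9 TPM (SD, n = 3 each), with limma adjusted p of 0.856 for both.

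The opposite switch was looked at in other libraries, taken 30 min after cells grown in light were moved to dark. There 0 of 5884 genes passed limma, with 144 at an unadjusted p under 0.05 and a smallest adjusted p of 0.141. The 62 genes called lower in light had a median of 0.06 at 30 min of dark, with 51 of 62 above 0, beside a median of 0.02 and 2863 of 4623 for all genes with an adjusted p. The 28 genes called higher in light had a median of 0.01, with 15 above 0 and 13 below. DBP3 averaged 60.7 ± 1.51 TPM at 30 min of dark and 54.4 ± 2.84 TPM at 0 min, and CUR1 27.8 ± 1.67 TPM at 30 min of dark and 27.3 ± 1.17 TPM at 0 min (SD, n = 3 each). More genes passed limma later in the dark, 16 higher and 2 lower at 60 min (0.272% and 0.034%) and 97 higher and 18 lower at 90 min (1.65% and 0.306%). At 90 min of dark the 28 genes called higher in light had a median of 0.26, with 25 above 0 and 3 passing limma as higher, and the 62 called lower had a median of -0.03, with 23 above 0 and 1 passing as lower. All genes with an adjusted p had a median of 0.07, with 3183 of 4623 above 0.

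H3K36me3 was higher over nearly every gene after the same 20 min. In the deposited signal (unit not stated), the median ratio of the 20 min mean to the 0 min mean was 1.85 over 4105 genes that have an adjusted p for RNA and a signal. In 4084 of these, every 20 min library was above every 0 min library. For the 27 genes called higher in RNA with a signal, the median ratio was 2.12 (quartiles 1.86 and 2.20), and for the 52 called lower it was 1.62 (quartiles 1.55 and 1.72), with no test made. The dark level differed as well, with a median of 0.0254 for genes called higher, 0.0600 for genes called lower and 0.0262 for all. HSP42 had a signal of 0.115 ± 0.0217 at 20 min and 0.0374 ± 0.00772 at 0 min, and NOC2 0.152 ± 0.0247 at 20 min and 0.0997 ± 0.00880 at 0 min (SD, n = 3 each). HSP42's ratio was 3.07 and NOC2's 1.52. The called genes were also described by RNA level and coding length, with no test. Mean TPM had a median of 27.9 for genes called higher, 48.7 for genes called lower and 31.5 for all genes with an adjusted p. Median coding length was 1712, 1536 and 1371 bases in the same order. The part of RNA level in the ratio was not tested.

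**Figure D5:**
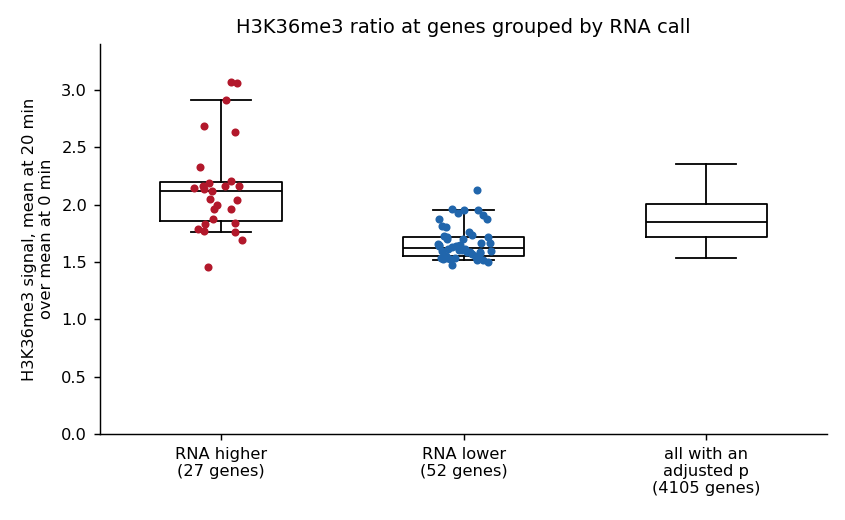
Ratio of mean H3K36me3 signal at 20 min to that at 0 min for genes called higher in RNA (27), called lower (52) and all genes with an adjusted p (4105). Boxes show quartiles and median, whiskers the 5th and 95th percentiles; the medians are 2.12, 1.62 and 1.85.

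Depth and strain checks were made in the 6 libraries. Depth ran from 16022537 to 29032861 recovered reads, and between 5808 and 5876 genes reached 1 TPM. URA3 and MET17, which BY4741 lacks, were at 0 TPM in all 6. HIS3 and LEU2, the other auxotrophic marker genes of BY4741, were at 158 to 225 TPM and 238 to 268 TPM at 20 min, against 168 to 228 TPM and 235 to 277 TPM at 0 min. The cells grew in SC−LEU medium, which lacks leucine, and whether these reads come from introduced marker genes was not tested. The 6 markers of a cells, the mating type of BY4741, summed to 3254 to 5724 TPM at 20 min and 3525 to 4379 TPM at 0 min. MFA1, a pheromone gene among them, varied most relative to its mean, with 308, 1012 and 838 TPM at 20 min, against 487, 626 and 431 TPM at 0 min. The 4 alpha cell markers summed to 12.8 to 13.6 TPM at 20 min and 12.3 to 13.9 TPM at 0 min, and the 5 sporulation markers to 9.32 to 9.55 TPM at 20 min and 8.32 to 8.99 TPM at 0 min. On the first 2 principal components (19.2% and 17.3% of the variance), 0 min replicate 1 and 60 min replicate 1 stood apart from the other libraries. On the first, 20 min replicate 1 (-7.46) lay among the 0 min libraries (-11.1, -6.91 and -7.62), while 20 min replicates 2 and 3 were at -0.29 and -0.55.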

How the data were processed

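Salmon TPM values per gene were used as the authors deposited them for the 11 dark to light and 12 light to dark RNA libraries, with sacCer3 as the build per the labels and Salmon 0.8.1 and DESeq2 1.14.1 named in the submitters' processing notes. Of 6692 gene IDs, 6008 matched RefSeq. H3K36me3 came as a deposited table of signal over 5355 genes, 1 value for each in every library, with no stated unit or scaling. The authors' deposited table of changed genes gives a log2 fold change, p-values and a mean normalized value (another unit) for 88 genes. Its sign is opposite to 20 min minus 0 min for all 88, so its fold runs as 0 min over 20 min. Its log2 sizes run from 0.14 to 0.47, and all 88 (100%) were among the 90 DESeq2 calls made here (97.8% of those).

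The main test was limma 3.58.1 with a variance trend on log2(TPM + 1) over all 11 dark to light libraries, for genes whose TPM averaged 1 or more, with Benjamini-Hochberg adjustment and a threshold of 0.05. Changes on that scale understate those of genes near 1 TPM. Reads were worked back from TPM through effective gene lengths in 6 deposited Salmon files of other strains, whose estimated counts the authors give in the same files. Those lengths were assumed for the course, and values below 1000 reads came out whole within 0.05 in 100% of cases. DESeq2 1.42.0 and edgeR 4.0.16 (R 4.3.3) ran on these reads as alternatives. The limma and DESeq2 steps were tested on simulated data. Of 50 genes changed 1.25-fold, limma recovered 16% and DESeq2 32%, so changes of that size were mostly missed. At 1.5-fold they recovered 82% and 88%. Unchanged genes called were 2 with limma and 6 with DESeq2. The changed genes were drawn from those with a mean TPM of at least 10. The simulated spread followed a trend with expression level, without spread particular to a gene or a replicate pattern. These rates may therefore not hold for the real libraries.

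Genes were named by rule: SET2, RPH1, the 5 cryptic promoter genes, up to 12 passing genes per direction and, where fewer than 4 passed, the 6 with the smallest p. The 10 largest DESeq2 calls per direction and the 2 with the smallest p in each list were added after values were seen. 34 lists were counted, with no test of a list. The values of 1 gene are not reported here. The comparison, members and lists were chosen with earlier results of these data known.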

Additional observations from a re-analysis of the deposited data

How the results depend on the processing

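The limma counts at 20 min (1 higher, 0 lower) kept their values under median-ratio scaling, pseudocounts of 0.1 and 5, no filter and a mean TPM of at least 10. With only the 6 libraries at 0 and 20 min and with edgeR the count of higher genes was 0. Leaving out 1 library gave 0 to 2 higher and 0 lower. DESeq2 gave 28 higher and 62 lower, and with only the 6 libraries 15 and 40. Leaving out 1 library from DESeq2 gave 4 to 78 higher and 0 to 202 lower. The cause of these differences was not tested.

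The replicate number was tried as a block. Deviations of same-numbered libraries at 20 and 0 min correlated at 0.19, 0.11 and -0.07, and the main fit did not take the numbers as pairs. Some lists still shared a replicate pattern. The amino acid synthesis median was highest in replicate 2 at 0, 20, 40 and 60 min (0.12, 0.06, 0.09 and 0.06 relative to the 0 min mean). The chaperone and proteasome medians were lowest in replicate 2 at 0 and 20 min. Whether the numbers mark pairs is not settled by these values. With the replicate block the limma counts were 1 and 0, with median-ratio scaling and replicate block 55 higher and 69 lower, with edgeR and replicate block 148 higher and 184 lower, and with DESeq2 and replicate block 132 higher and 217 lower. At 40 min against 20 min the replicate block gave 8 higher, and with scaling 15 higher and 1 lower. At 60 min against 20 min the block with scaling gave 13 higher and 15 lower. The edgeR fit with block and the DESeq2 fits with block, with 6 libraries or without 1 library were chosen after seeing the data. Of the 124 calls with scaling and block, 61 (49.2%) were among the DESeq2 calls (67.8% of those).

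Directions turned for 4 named genes with changes near 0. With median-ratio scaling, and with median-ratio scaling and replicate block, SET2 was -0.0132 and STE11 -0.0411. With edgeR they were -0.0169 and -0.0374, and with DESeq2 -0.0239 and -0.0446. AVO1 was -0.00113 with DESeq2. Leaving out 1 library gave -0.0807 to 0.187 for SET2, -0.165 to 0.0272 for RPH1 and -0.0522 to 0.063 for STE11. The median standard error over genes was 0.09 on the log2 scale at depths from 16022537 reads, and the limma call YNL277W-A rests on 57 reads at 20 min and 26 at 0 min.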
